A study of Mus musculus with 53 samples.

Results

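Extracellular proteases and their inhibitors were followed in mouse fibroblasts given adipogenic hormones. The members were chosen by gene symbol: the Mmp, Timp, Adam and Adamts genes, the serpins without Serpina3n, Serping1 and Serpinh1, and Plat, Plau, Plaur, Cpe, Lxn and Htra1. This gave 59 genes of the 8251 with 1 symbol on the array, each read from its brightest probe set. The cells were NIH-3T3, an established mouse embryonic fibroblast line, transduced with an empty vector, with PPARg2 (the adipocyte form of a fatty acid sensing nuclear receptor) or with EBF1 (early B-cell factor 1, a zinc finger transcription factor). All 3 kinds of cells received the hormones, so the vector cells are a control for the insert and not for the hormones. Total RNA was taken on d0, d2, d4 and d10 after stimulation. Each insert had 4 arrays on d0, 4 on d2 and 7 on d4, while d10 had 3 vector, 3 PPARg and 2 EBF1 arrays. The labels speak of 7 independent stimulations without saying which array came from which, so p-values measure the spread between these arrays, part of which may be technical.

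Adipocyte differentiation comes with a rebuilding of the matrix around the cell. Matrix metalloproteinases cut collagens and other matrix proteins and are held in check by the Timp proteins. Plasminogen activators turn plasminogen into plasmin, and serpins trap serine proteases, though some serpins have other roles. Adam proteins are membrane proteins that combine a metalloproteinase-type domain with a disintegrin domain, and several of them shed other surface proteins.

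Of the 59 members, 32 were bright enough to be tested, that is above an intensity of 158 (the median of the whole table) on at least 2 arrays. They were all 3 Timp genes, all 3 genes of the plasminogen activator system, Cpe, Lxn and Htra1, 8 of 20 serpins, 4 of 13 Mmp genes and 11 of 16 Adam genes. Only 18 of the 32 were above that intensity on all 53 arrays, and Plau passed it on 18 arrays, so a count over tested members is not a count over all members. In at least 1 of 19 comparisons 18 tested members passed the limma test at an adjusted p under 0.05, and 14 passed in none. The matching share of all tested genes was not computed, so these counts do not set members apart from other genes. Among those 18, Timp2 had 3 probe sets on the array and Timp1, Mmp9 and Adam3 had 2 each. Only 1 probe set of each of these genes was bright enough to be tested, so their results rest on it.

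The arrays fall into 3 sessions by the hybridisation date in their experiment files. Session 1 holds the arrays whose record gives no valid date, sessions 2 and 3 those of an earlier and a later year, and a session may span several days. Sessions 1 and 2 each held 2 arrays of every d0, d2 and d4 group, and session 3 held 3 d4 arrays of each insert and every d10 array. Differences between d10 and d4 are therefore also given within session 3. Array medians lay between 142.5 and 167.6. Actin probe sets near the 3' end read 1.06 to 1.59 times those near the 5' end, with 1.29 to 1.46 on the d10 arrays of both inserts. On the vector arrays this ratio was 1.09 to 1.24 on d0, 1.14 to 1.41 on d2, 1.23 to 1.41 on d4 and 1.30 to 1.59 on d10, so d0 and d10 did not overlap, and its part in the time course of vector cells was not tested.

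The stretch of 250 bases before the gene start is shown for 4 members that the results below turn on, as given by RefSeq for GRCm38.p6, read 5′ to 3′ along the strand of the gene. Timp3 and Serpinf1 fell and later returned in vector cells, Lxn rose, and Mmp14 is the 1 member of the 12 past the test with a window that matched the EBF motif. The windows are chr10:86300162-86300411 on the plus strand for Timp3, chr11:75422624-75422873 on the minus strand for Serpinf1, chr3:67463908-67464157 on the minus strand for Lxn and chr14:54431348-54431597 on the plus strand for Mmp14. Capitals mark the EBF match, which starts 183 bases before the gene start.
Timp3: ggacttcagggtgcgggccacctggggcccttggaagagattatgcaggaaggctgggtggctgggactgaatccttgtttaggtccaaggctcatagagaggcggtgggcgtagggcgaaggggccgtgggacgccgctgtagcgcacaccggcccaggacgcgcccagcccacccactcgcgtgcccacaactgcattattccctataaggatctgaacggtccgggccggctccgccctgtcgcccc
Serpinf1: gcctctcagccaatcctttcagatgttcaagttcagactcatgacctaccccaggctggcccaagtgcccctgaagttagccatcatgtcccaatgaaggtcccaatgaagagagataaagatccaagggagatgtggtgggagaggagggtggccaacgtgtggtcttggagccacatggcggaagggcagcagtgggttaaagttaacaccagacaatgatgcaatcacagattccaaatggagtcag
Lxn: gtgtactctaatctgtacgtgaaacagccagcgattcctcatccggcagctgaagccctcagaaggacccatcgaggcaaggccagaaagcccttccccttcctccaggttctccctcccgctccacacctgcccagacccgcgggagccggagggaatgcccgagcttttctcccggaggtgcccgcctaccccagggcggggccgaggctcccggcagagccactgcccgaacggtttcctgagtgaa
Mmp14: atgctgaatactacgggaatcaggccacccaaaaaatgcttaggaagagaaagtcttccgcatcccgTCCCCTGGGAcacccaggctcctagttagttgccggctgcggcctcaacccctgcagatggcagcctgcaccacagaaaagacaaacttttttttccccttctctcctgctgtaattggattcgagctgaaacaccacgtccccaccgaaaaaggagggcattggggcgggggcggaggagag

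A window was at hand for 40 members, 12 of them among the 18 past the test. Searched on both strands, the palindromic EBF motif was found in 0.779% of all 32851 windows and in 1 of those 12 members. The AP-1 motif TGANTCA was in 6.75% of all windows and in 1 of the 12 members, and TATAAA was in 12.4% of all windows and in 0 of the 12. The PPAR-RXR direct repeat was in 0.0335% of all windows, the palindromic glucocorticoid receptor motif in 0.0304% and its left part AGAACA, which overlaps it, in 16.1%, and none of these was in a window of the 12. The shares of all are per window, while a member counted once if any of its windows matched. Of the 12 members 10 had 1 window, and the AP-1 match lay in 1 of the 3 windows of Adam19. A match is a stretch of letters only.

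In vector cells the hormones were followed by an early fall of several inhibitors and of Plau, a rise of latexin and of some Adam genes, and by d10 a rise of most genes that had fallen: of the 7 members lower at d2, all but Serpinb6a were higher on d10 than on d4. At d2 against d0, 5 of the 32 tested members were higher (15.6%) and 7 lower (21.9%), while 9.43% of all 5761 tested genes were higher and 12.8% lower. At d4 against d0, 4 members were higher (12.5%) and 5 lower (15.6%), near the 11.7% and 13.3% of all genes. The members' median log2 difference was 0.01 at d2 and -0.06 at d4, and that of all genes 0.02 and -0.01. From d4 to d10, 9 members rose (28.1%, against 11.7% of all genes) and 1 fell (3.12%, against 7.33%), with a median of 0.10 for members and 0.01 for all genes.

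Timp3, which encodes a metalloproteinase inhibitor that binds to the matrix, had the widest swing of the inhibitors. The vector arrays read 977, 1119, 1310 and 1449 on d0, and 269.7, 307, 339 and 396 on d2. On d4 they ran from 179 through a median of 260.3 to 805, and on d10 they read 1932, 2237 and 2511. No array of d2 or d4 reached the lowest of d0, and every array of d10 lay above all of them. The log2 difference from d0 was -1.89 ± 0.28 (SE) at d2, a 3.70-fold fall with adjusted p = 4.1e-07, and -1.94 ± 0.25 at d4, with adjusted p = 1.19e-08. From d4 to d10 it was 2.83 ± 0.27, a 7.10-fold rise with adjusted p = 1.19e-11. The 3 highest d4 arrays were those of session 3, and within that session the rise was 2.17. The fall at d4 was -2.84 in session 1 and -2.03 in session 2.

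Timp1 encodes a secreted inhibitor of most matrix metalloproteinases. Its vector arrays averaged 1159 ± 105 (SD, n = 4) on d0, 862 ± 129.9 (n = 4) on d2, 679 ± 18.0 (n = 7) on d4 and 987 ± 44.2 (n = 3) on d10. The d4 arrays, 649 to 701, lay below every array of the other days. Against d0 Timp1 differed by -0.43 ± 0.09 at d2 and -0.77 ± 0.08 at d4, and it rose by 0.54 ± 0.09 from d4 to d10, with adjusted p = 0.000134, 3.19e-11 and 3.01e-06. Timp2, which inhibits metalloproteinases and also helps Mmp14 to activate Mmp2, did not pass the test at d2 or d4 (log2 differences of -0.41 and -0.08). Its rise from d4 to d10, 0.55 ± 0.18, had adjusted p = 0.0236, with overlapping arrays, and was no longer past the threshold within session 3 (0.38) or without vector d4 replicate 4, vector d10 replicate 1 or vector d10 replicate 3 (0.47 to 0.51).

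Serpinf1 encodes pigment epithelium derived factor, a secreted serpin without protease inhibitor activity. The vector arrays read 1181, 1605, 1845 and 1876 on d0 and 355, 568, 616 and 653 on d2. They ran from 755 through a median of 1108 to 1895 on d4 and read 2310, 2329 and 3121 on d10. By session, the d4 arrays read 755 to 1108 in sessions 1 and 2, below every d0 array, and 1662 to 1895 in session 3. The d2 arrays lay below all others of the vector cells and the d10 arrays above all others. On the log2 scale Serpinf1 differed by -1.58 ± 0.20 at d2, a 3.00-fold fall with adjusted p = 2.15e-08, and 1.06 ± 0.20 from d4 to d10, with adjusted p = 5.74e-05 and 0.52 within session 3. At d4 against d0 it differed by -0.39, which did not pass the limma test (adjusted p = 0.125). A dimmer second probe set of Serpinf1 passed in none of the 19 comparisons, with 0.18 ± 0.16 at d2 and -0.07 ± 0.15 from d4 to d10, so the swings rest on 1 of its 2 probe sets. Serpinb6a, an intracellular serpin, was lower at d2 (-0.63 ± 0.16, adjusted p = 0.00247), with overlapping arrays, and that call was lost in a fit of only the groups compared.

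Lxn encodes latexin, an inhibitor of carboxypeptidase A. It moved the other way: the vector arrays read 237, 312, 361 and 387 on d0 and 705, 1044, 1103 and 1132 on d2. They ran from 610.5 through 983 to 1247 on d4 and read 1078, 1093 and 1132 on d10. Every array after d0 lay above every array of d0. Its log2 rise was 1.62 ± 0.16 at d2 and 1.59 ± 0.14 at d4, about 3.07-fold and 3.02-fold, with adjusted p = 2.06e-11 and 7.25e-13, and 0.19 from d4 to d10, which did not pass.

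**Figure D1:**
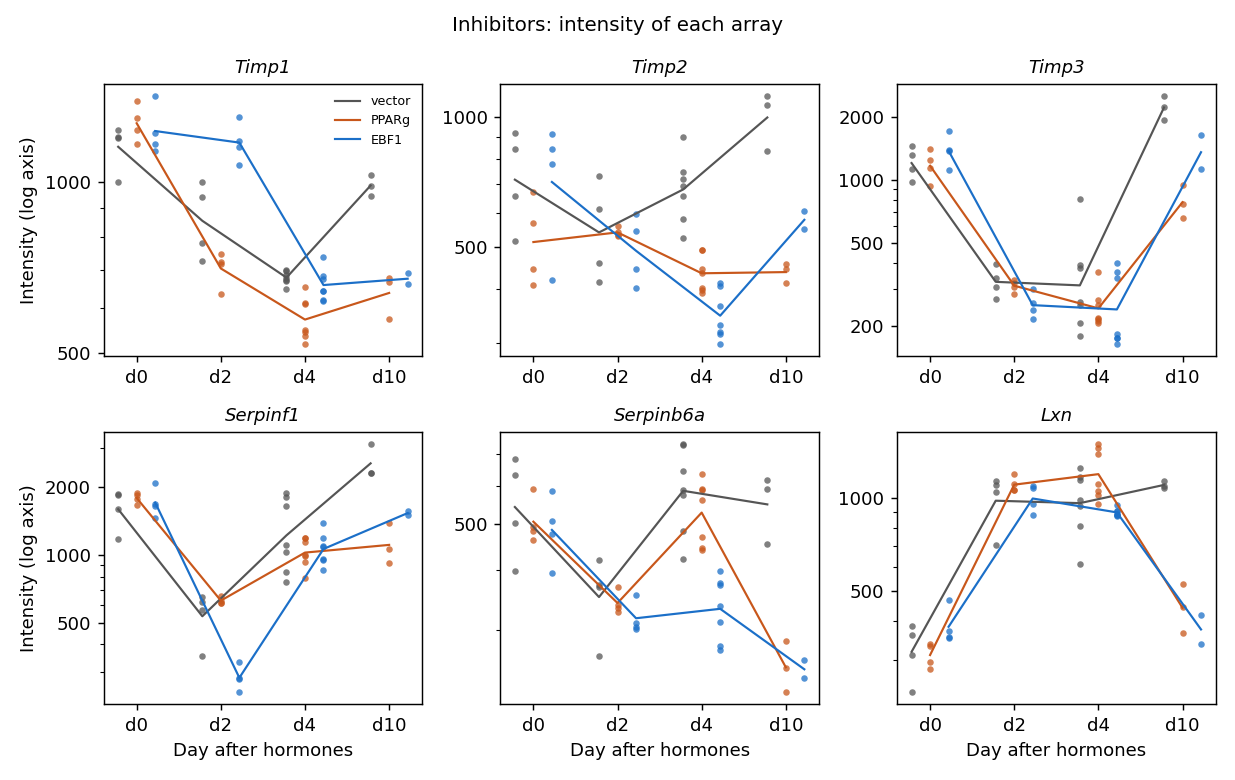
Intensity of Timp1, Timp2, Timp3, Serpinf1, Serpinb6a and Lxn on every array (points, log axis) by day after the hormones. A line runs through the mean log2 intensity of each insert's arrays (4 arrays on d0 and d2, 7 on d4, 2 or 3 on d10). All but Serpinf1 encode protease inhibitors. In vector cells the arithmetic mean of Timp3, which is not the mean the line shows, went from 353 on d4 to 2227 on d10. Lxn stayed near 1101 in vector cells on d10 and read 339 to 528 on the d10 arrays of both inserts.

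Plau encodes urokinase, the plasminogen activator that works at the cell surface. The vector arrays read 168, 187, 198.5 and 215 on d0 and 70.0, 73.9, 77.4 and 84.3 on d2. They ran from 79.8 through 117 to 219.6 on d4 and read 235, 301 and 439.5 on d10. The d2 arrays lay below all d0 arrays and the d10 arrays above every earlier array. Plau differed on the log2 scale by -1.33 ± 0.20 at d2 (adjusted p = 1.09e-06), -0.54 ± 0.18 at d4 (adjusted p = 0.0241, overlapping arrays) and 1.25 ± 0.20 from d4 to d10 (adjusted p = 3.12e-06). Within session 3 the d10 rise was 0.71. The d4 call was lost without vector d0 replicate 3 or 4 or vector d4 replicate 1 or 2 (-0.41 to -0.52), and in a fit of only the groups compared. Taken by session, however, the d4 fall of Plau was -1.02 in session 1 and -0.86 in session 2. Its d4 arrays in those sessions, 79.8 to 117, lay below every d0 array. The overlap came from the d4 arrays of session 3, 173 to 219.6, a session without d0 arrays. Plat, the tissue plasminogen activator, and Plaur, the urokinase receptor, passed in none of the 19 comparisons. Their group means ran from 1057 to 1589 for Plat and from 199.7 to 277.9 for Plaur.

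Among the metalloproteinases only Mmp9, a gelatinase, passed in vector cells over time. The 7 d4 arrays ran from 138 to 176 with a median of 150.4, and the d10 arrays read 235, 257 and 283, above every earlier vector array. The rise from d4 to d10 was 0.74 ± 0.13 on the log2 scale, with adjusted p = 2.5e-05, and 0.83 within session 3. Mmp14, the membrane-bound metalloproteinase that activates Mmp2, did not pass over time in vector cells, with means of 1679 ± 181 (n = 4) on d0 and 1620 ± 106 (n = 3) on d10.

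The Adam genes split by direction. Adam10, a sheddase that cuts Notch and other surface proteins, rose from 126 ± 13.5 (n = 4) on d0 to 230.3 ± 21.6 (n = 4) on d2 and 217 ± 38.8 (n = 7) on d4, log2 differences of 0.87 and 0.77 with adjusted p = 2.38e-06 and 2.28e-06. Its second probe set passed at both days with 0.40 and 0.59. Adam12 rose by 0.53 and 0.80 (adjusted p = 0.00554 and 2.98e-06) and Adam15 by 0.32 and 0.42 (adjusted p = 0.016 and 0.000261). Adam9 rose at d2 (0.45, adjusted p = 0.00682) and did not pass at d4 (0.22). The d2 calls of Adam9 and Adam15 were lost in a fit of only the groups compared, and that of Adam15 also without vector d0 replicate 2 or vector d2 replicate 3 (0.29 in each case).

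Adam19, a sheddase of growth factor precursors such as neuregulins, fell instead. The vector arrays read 327, 380, 407 and 428 on d0 and 189.5, 194, 217.5 and 221 on d2, ran from 157 to 211 on d4 and read 248, 329 and 363 on d10. The d2 and d4 arrays lay below all arrays of d0 and d10. The Adam19 difference from d0 was -0.90 ± 0.14 at d2, -1.08 ± 0.13 at d4 and 0.77 ± 0.14 from d4 to d10, with adjusted p = 2.09e-06, 1.88e-09 and 3.39e-05. From d4 to d10 Adam23, a disintegrin without protease activity, rose by 0.37 (adjusted p = 0.0102) and Adam15 fell by 0.38 (adjusted p = 0.00344). Within session 3 these were 0.14 and -0.26 and neither passed, and the Adam23 call was also lost without vector d10 replicate 1 or 3 (0.29 and 0.34) and in a fit of only the groups compared.

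Cpe encodes carboxypeptidase E, which trims prohormones. Its vector arrays averaged 1386 ± 146 (n = 4) on d0, 884 ± 52.2 (n = 4) on d2, 1055 ± 323 (n = 7) on d4 and 1933 ± 257 (n = 3) on d10. The d10 arrays lay above all earlier ones. For Cpe the difference was -0.65 ± 0.16 at d2, -0.45 ± 0.14 at d4 and 0.93 ± 0.15 from d4 to d10, with adjusted p = 0.00153, 0.0128 and 6.68e-06, and its second probe set passed in the same direction in all 3 (adjusted p = 0.000489, 0.018 and 0.000646). The d4 arrays of session 3, 1302 to 1455, were above the d4 arrays of the other sessions, 615 to 971, and the rise within session 3 was 0.48. The d4 call was lost without vector d0 replicate 1 (-0.39) and in a fit of only the groups compared. The brighter probe set of Cpe was designed to match similar transcripts too, so its level may include others.

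**Figure D2:**
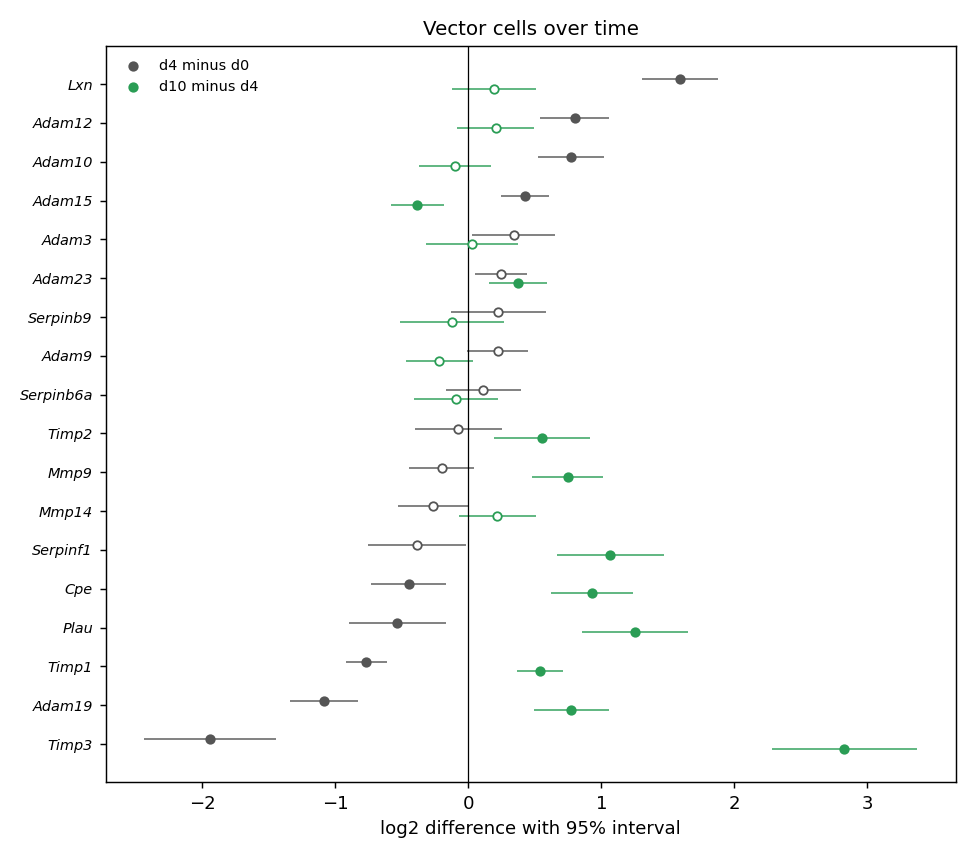
Log2 differences (x axis) in vector cells at d4 against d0 (4 and 7 arrays, grey) and at d10 against d4 (7 and 3 arrays, green) for the 18 members past the test in at least 1 comparison. Lines are 95% intervals, filled points passed the test and open points did not; Timp3 lies at -1.94 and then 2.83.

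From d4 to d10 Timp3 rose and Lxn fell in cells with either insert. In PPARg cells 3 of 32 tested members were higher and 5 lower, against 7.53% and 10.8% of all genes. In EBF1 cells 3 were higher and 1 lower, against 9.62% and 5.81% of all genes. Without PPARg d10 replicate 1 the PPARg count was 5 in place of 8. The EBF1 count was 7 in place of 4 in a fit of session 3 alone.

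The Timp3 rise was found in all 3 kinds of cells. In PPARg cells the d4 arrays ran from 206.5 through 217 to 359.9 and the d10 arrays read 656, 766 and 945, a log2 difference of 1.69 ± 0.27 (adjusted p = 4.14e-06, 1.44 within session 3). In EBF1 cells the d4 arrays ran from 164 through 183 to 401 and the d10 arrays read 1125 and 1626, a difference of 2.50 ± 0.31 (adjusted p = 2.82e-08, 1.88 within session 3). The d10 arrays did not overlap the d4 arrays in either case.

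Lxn moved the other way. The PPARg arrays ran from 956 through 1111 to 1491 on d4 and read 368, 445 and 528 on d10. The EBF1 arrays ran from 873 through 886 to 951.5 on d4 and read 339 and 418 on d10. The fall gave a log2 difference of -1.43 ± 0.16 in PPARg cells and -1.25 ± 0.18 in EBF1 cells, with adjusted p = 6.95e-10 and 7.61e-07, and -1.70 and -1.27 within session 3. No d10 array of these cells reached the lowest d4 array.

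Other changes from d4 to d10 passed with 1 insert, and the difference between the inserts was not tested. In PPARg cells Serpinb6a fell by 1.08 on the log2 scale (adjusted p = 5.32e-07), Adam9 by 0.80 (adjusted p = 3.02e-06) and Adam10 by 0.77 (adjusted p = 2.22e-05), though the second probe set of Adam10, at -0.24 ± 0.14, did not pass. Smaller PPARg changes, Adam15 (-0.31), Adam3 (0.57) and Serpinb9 (0.56), were lost without single arrays, in 3, 2 and 6 of 10 omissions, those of PPARg d10 replicate 1 among them, and the Adam15 and Adam3 calls were lost within session 3 (-0.17 and 0.55). In EBF1 cells Cpe rose by 0.92 (adjusted p = 0.000122) and Timp2 by 0.74 (adjusted p = 0.0101), and the Timp2 call was lost without either EBF1 d10 array (0.67 and 0.81).

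On d10 Timp1, Timp2, Lxn, Serpinf1, Serpinb6a and Plau were lower in cells with either insert than in vector cells, and Serpinb9 was higher. With PPARg 14 of 32 tested members were lower (43.8%) and 1 higher, against 14.5% and 9.6% of all genes. With EBF1 9 were lower (28.1%) and 1 higher, against 7.9% and 10.6% of all genes. The median log2 difference was -0.16 for members and -0.01 for all genes with PPARg, and -0.06 and -0.02 with EBF1. Both comparisons lie within session 3 and share the 3 vector arrays. The 12 lower members of largest size with PPARg were, in order, Plau, Timp3, Lxn, Cpe, Serpinf1, Timp2, Serpinb6a, Adam19, Timp1, Adam23, Mmp14 and Mmp9. The PPARg count stayed between 13 and 15 when any single array was left out. The EBF1 count of 10 was 6 without vector d10 replicate 1, vector d10 replicate 3 or EBF1 d10 replicate 1, and 4 without EBF1 d10 replicate 2.

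All 3 Timp genes were lower with PPARg on d10. For Timp3 the PPARg arrays, 656 to 945, lay below the vector arrays, 1932 to 2511, and the log2 difference was -1.50 ± 0.32, a 2.84-fold lower level with adjusted p = 0.000275. With EBF1 the difference of -0.71 ± 0.36 did not pass (95% interval -1.43 to 0.01, adjusted p = 0.193). For Timp2 the vector arrays read 833.5, 1065 and 1119, the PPARg arrays 411, 444 and 457 and the EBF1 arrays 551 and 606. The log2 differences were -1.19 ± 0.21 with PPARg and -0.79 ± 0.24 with EBF1, with adjusted p = 2.12e-05 and 0.014. For Timp1 the vector arrays read 944, 986.5 and 1032, the PPARg arrays 574, 667 and 677 and the EBF1 arrays 661 and 691. The differences were -0.63 ± 0.10 and -0.55 ± 0.11, with adjusted p = 3.18e-06 and 0.000256. The Timp2 call with EBF1 was lost without vector d10 replicate 1 or 3 or either EBF1 d10 array (-0.71 to -0.86).

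Among the serpins, Serpinf1 read 2310 to 3121 on the vector arrays, 919, 1069 and 1390 with PPARg and 1509 and 1567 with EBF1. Both inserts lay below every vector array. Serpinf1 differed from vector by -1.21 ± 0.24 with PPARg (adjusted p = 8.73e-05) and -0.74 ± 0.26 with EBF1 (adjusted p = 0.0438). The EBF1 call was lost without vector d10 replicate 1 or 3 or either EBF1 array (-0.59 to -0.80), and the second Serpinf1 probe set gave 0.20 ± 0.18 and 0.09 ± 0.20. Serpinb6a read 453, 592 and 617 on the vector arrays, 222, 249 and 283 with PPARg and 237 and 259 with EBF1. Its differences were -1.13 ± 0.18 and -1.15 ± 0.21, with adjusted p = 3.92e-06 and 2.69e-05. Serpinb9, whose human counterpart inhibits granzyme B, read 139.6, 143 and 193 on the vector arrays, 272, 273 and 283 with PPARg and 237 and 304 with EBF1. It was the 1 member higher with each insert, by 0.82 ± 0.23 and 0.78 ± 0.26 (adjusted p = 0.00609 and 0.0271), and the EBF1 call was lost without vector d10 replicate 1 or 3 or either EBF1 array (0.60 to 0.96).

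Lxn was lower with both inserts on d10. The vector arrays read 1078 to 1132 and the arrays of both inserts 339 to 528. Lxn differed from vector by -1.32 ± 0.19 with PPARg, a 2.49-fold lower level, and -1.55 ± 0.21 with EBF1, a 2.92-fold lower level, with adjusted p = 2.4e-07 and 8.46e-08. Both calls held whichever single array was left out.

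Plau read 235, 301 and 439.5 on the vector arrays, 102, 104 and 112 with PPARg and 103 and 150.3 with EBF1. Plau differed from vector by -1.58 ± 0.24 with PPARg and -1.34 ± 0.26 with EBF1, 2.98-fold and 2.53-fold lower levels with adjusted p = 7.88e-07 and 0.000121. Both Plau calls held whichever single array was left out. Mmp14 read 1515, 1619 and 1727 on the vector arrays and 1042, 1111 and 1138 with PPARg, a difference of -0.56 ± 0.17 (adjusted p = 0.0113) that was lost without vector d10 replicate 3 (-0.51). Mmp9 was lower with PPARg by 0.53 ± 0.16 on the log2 scale (adjusted p = 0.00957), and this was lost without vector d10 replicate 2 (-0.46) or PPARg d10 replicate 3 (-0.36) and in a fit of only the groups compared. With EBF1 neither passed, at -0.38 (95% interval -0.77 to 0.00) for Mmp14 and -0.35 (-0.71 to -0.00) for Mmp9.

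Adam19 and Adam23 were lower with both inserts on d10. Adam19 read 248, 329 and 363 on the vector arrays, 179, 183 and 198 with PPARg and 197 and 215 with EBF1, differences of -0.73 ± 0.17 and -0.59 ± 0.19 with adjusted p = 0.000652 and 0.0191. Adam23 read 499.9, 617 and 654 on the vector arrays, 381, 392 and 399.9 with PPARg and 399 and 418 with EBF1, differences of -0.59 ± 0.13 and -0.52 ± 0.14 with adjusted p = 0.000378 and 0.00573. The EBF1 calls were lost in a fit of only the groups compared, that of Adam19 also without vector d10 replicate 1 or 3 or either EBF1 array (-0.47 to -0.65), and that of Adam23 without EBF1 d10 replicate 2 (-0.49). Adam9 and Adam10 passed with PPARg (-0.46 and -0.50, adjusted p = 0.018 for each). Both calls were lost without vector d10 replicate 1 (-0.37 and -0.40) or PPARg d10 replicate 1 (-0.37 and -0.43), that of Adam10 also without vector d10 replicate 2 (-0.47), and the second Adam10 probe set did not pass (-0.27).

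Cpe read 1720, 1860 and 2219 on the vector arrays, 719, 748 and 887 with PPARg and 1022 and 1186 with EBF1. Its log2 difference was -1.30 ± 0.18 with PPARg (adjusted p = 1.93e-07) and -0.80 ± 0.20 with EBF1 (adjusted p = 0.0027). The second Cpe probe set gave -1.18 ± 0.23 (adjusted p = 0.000101) and -0.65 ± 0.26 (adjusted p = 0.0797), and the EBF1 call was lost without EBF1 d10 replicate 2 (-0.70).

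**Figure D3:**
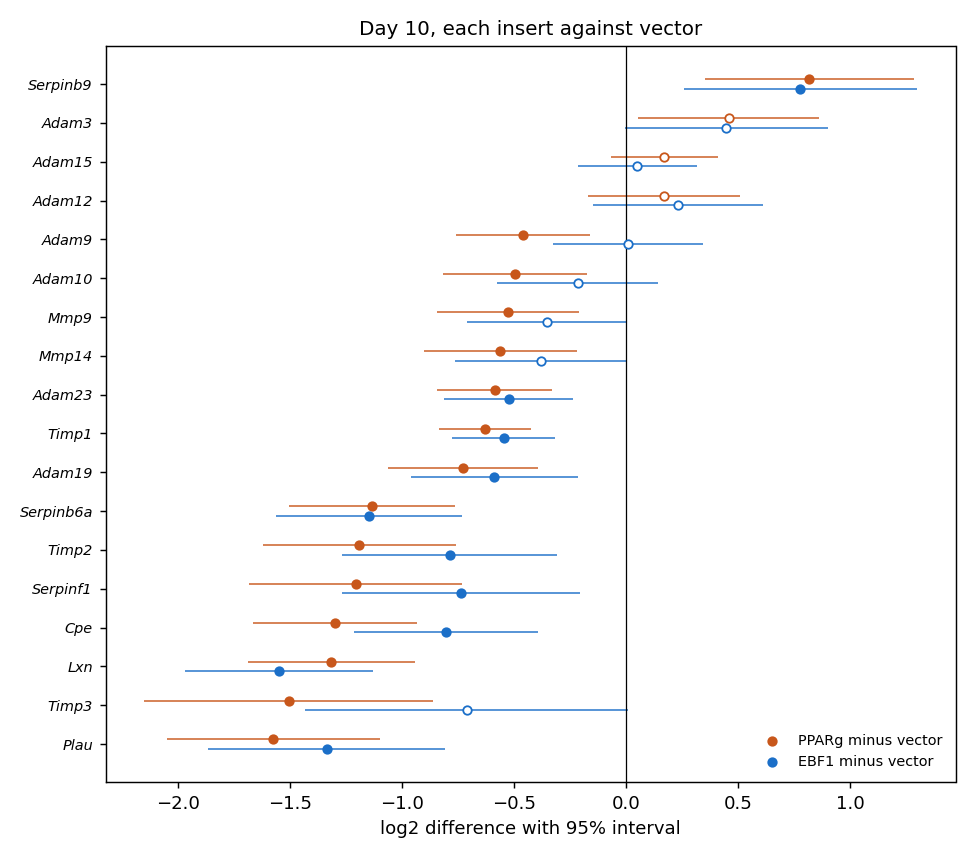
Log2 differences from vector on d10 (x axis) for PPARg (3 arrays against 3) and EBF1 (2 against 3), for the 18 members past the test in at least 1 comparison. Lines are 95% intervals, filled points passed and open points did not; 14 members lie below 0 as filled points with PPARg and 9 with EBF1.

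Whether an insert changed the course from d4 to d10 was tested as a difference of differences. With PPARg 11 of 32 members had a lower course than in vector cells and 0 a higher one, against 7.6% and 4.18% of all genes. With EBF1 4 had a lower course and 0 a higher one, against 1.3% and 4.36% of all genes. Within session 3 alone only Lxn passed with each insert, at -1.60 for PPARg and -1.16 for EBF1, where the fit of all arrays gave -1.63 ± 0.22 (adjusted p = 7.95e-07) and -1.45 ± 0.24 (adjusted p = 2.84e-05). The other members were between -0.18 and -0.74 within session 3 for PPARg and between -0.20 and -0.62 for EBF1, and the session 3 fit, which was chosen after seeing the data, has fewer arrays. The second probe sets of Cpe (-0.76, adjusted p = 0.0681), Adam10 (-0.27) and Serpinf1 (0.23) did not pass in the PPARg case. The PPARg count was 4 without vector d10 replicate 1, 6 without vector d10 replicate 3, 5 without PPARg d10 replicate 1 and 7 without PPARg d10 replicate 2. The EBF1 count was 1 without EBF1 d10 replicate 1 and 2 without vector d10 replicate 1, any of vector d4 replicates 1 to 4 or EBF1 d4 replicate 6.

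Before d10 up to 7 members passed between inserts. On d0, before the hormones, 1 member was lower and 0 higher with PPARg than in vector cells, against 1.53% and 2.24% of all genes, and 1 was higher and 0 lower with EBF1, against 0.382% and 0.451%. The EBF1 member was Adam23: the vector arrays read 361 to 423 and the EBF1 arrays 606, 705, 744.5 and 747, with no overlap. Its log2 difference was 0.87 ± 0.11, a 1.82-fold higher level with adjusted p = 6.51e-07, and it was 0.87 in session 1 and 0.86 in session 2. On d2 the EBF1 arrays of Adam23 read 405 to 467.5 and the vector arrays 329 to 421. The PPARg member was Adam19, with arrays of 206, 243, 248 and 323 against 327 to 428 in vector cells (-0.61 ± 0.14, adjusted p = 0.00667). That count was 0 without PPARg d0 replicate 1 (-0.51) and in a fit of only the groups compared, and 2 without vector d0 replicate 4.

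Between EBF1 and PPARg cells on d0, 4 members were higher with EBF1 and 0 lower, against 2.43% and 3.92% of all genes. Adam23 was higher by 1.09 ± 0.11 on the log2 scale (adjusted p = 6.31e-10), Mmp14 by 0.54 ± 0.15 (adjusted p = 0.0152), Adam19 by 0.48 ± 0.14 (adjusted p = 0.0325) and Adam9 by 0.43 ± 0.13 (adjusted p = 0.0301). The count was 2 without PPARg d0 replicate 1 or 2 or EBF1 d0 replicate 1 or 4, and 2 in a fit of only the groups compared. In that set only the Adam23 call was kept whichever array was left out.

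On d2 no tested member passed between PPARg and vector cells by limma (0 higher and 0 lower, against 0.174% and 0.469% of all genes, and 1 at an unadjusted p under 0.05, Timp1 at -0.28). Without vector d2 replicate 4 the count was 1. EBF1 cells had 2 members higher and 1 lower than vector cells, against 0.885% and 0.677% of all genes, and 2 higher and 2 lower than PPARg cells, against 3.85% and 1.49%. Timp1 read 1074, 1152, 1183 and 1302 with EBF1, 725 to 999 with vector and 634 to 748 with PPARg, so the EBF1 arrays lay above all others. Its log2 difference was 0.46 ± 0.09 from vector (adjusted p = 0.000985) and 0.74 ± 0.09 from PPARg (adjusted p = 2.76e-08).

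Serpinf1 was lower with EBF1 on d2, with arrays of 246, 280.1, 284 and 333 against 355 to 653 in vector and 611 to 658.5 in PPARg cells. The differences were -0.91 ± 0.20 (adjusted p = 0.00671) and -1.14 ± 0.20 (adjusted p = 9.54e-05), and its second probe set gave -0.08 and -0.30, neither past the test. Adam9 was higher with EBF1 on d2, with arrays of 262, 287, 303 and 311 against 173 to 237 in vector cells and 166 to 189 in PPARg cells, by 0.49 ± 0.13 (adjusted p = 0.0324) and 0.74 ± 0.13 (adjusted p = 6.07e-05). Adam19 was lower with EBF1 than with PPARg by 0.62 ± 0.14 (adjusted p = 0.00351), at -0.29 in session 1 and -0.95 in session 2. Against vector, the EBF1 count of 3 was 1 without vector d2 replicate 3 and 0 in a fit of only the groups compared. The Adam9 call against vector was also lost without vector d2 replicate 4 or EBF1 d2 replicate 1, 2 or 3 (0.41 to 0.50) and under quantile normalization. The d2 calls against PPARg held whichever single array was left out.

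On d4 the inserts had lower levels of several members. With PPARg 4 members were lower than in vector cells and 0 higher, against 1.98% and 5.95% of all genes. With EBF1 6 were lower and 1 higher, against 8.16% and 11.4%. Timp2 was lower with both: the vector arrays ran from 526 through 692 to 901, the PPARg arrays from 391 through 435 to 491 and the EBF1 arrays from 298 through 330.2 to 413, with no overlap with vector. The log2 differences were -0.65 ± 0.14 and -0.97 ± 0.14, with adjusted p = 0.00152 and 6.37e-07. In the 3 sessions they were -0.58, -0.34 and -0.89 with PPARg and -1.10, -0.61 and -1.13 with EBF1.

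Of the other 3 calls with PPARg on d4, Plau was at -0.54, Cpe at -0.37 and Timp1 at -0.25, with overlapping arrays in each and adjusted p = 0.0217, 0.0418 and 0.0134. Plau was 0.14 in session 1, -0.44 in session 2 and -1.05 in session 3, and Cpe 0.03, -0.35 and -0.66, so neither kept its sign in every session. The second Cpe probe set gave -0.42 (adjusted p = 0.0892). The count of 4 was 2 without any of vector d4 replicates 5, 6 and 7, and 2 in a fit of only the groups compared.

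With EBF1 on d4 Serpinb6a ran from 273 through 337 to 398, against 421 through 589 to 734 in vector cells, a log2 difference of -0.82 ± 0.12 (adjusted p = 1.02e-06) without overlap. Cpe was at -0.80 ± 0.12 (adjusted p = 1.21e-06), with -0.15, -0.81 and -1.23 in the 3 sessions. Adam10 was at -0.46, Mmp14 at -0.39, Adam9 at -0.28 and Adam12 at 0.38, with overlapping arrays in each. Mmp14 was 0.05 in session 1, -0.43 in session 2 and -0.67 in session 3. The Adam9 call was lost without any of vector d4 replicates 5, 6 and 7 or EBF1 d4 replicates 2, 3 and 4 (-0.22 to -0.27) and in a fit of only the groups compared.

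Between EBF1 and PPARg cells on d4, 5 members were lower with EBF1 and 0 higher, against 4.17% and 2% of all genes. Serpinb6a was at -0.67 ± 0.12 (adjusted p = 0.000171), Adam10 at -0.63 ± 0.10 (adjusted p = 4.78e-05), Cpe at -0.43 ± 0.12, Lxn at -0.41 ± 0.12 and Adam9 at -0.40 ± 0.10. The first pair and Adam9 kept their calls whichever array was left out. Without EBF1 d4 replicate 5 the count was 3, and the second Cpe probe set gave -0.30, not past the test. Lxn was lost without any of PPARg d4 replicates 5, 6 and 7 or EBF1 d4 replicates 4 and 5 (-0.36 to -0.41).

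On d10 no tested member passed between EBF1 and PPARg cells by limma, with 0 higher and 0 lower against 0.92% and 0.312% of all genes, and 3 at an unadjusted p under 0.05. These were Timp3 at 0.79 (95% interval 0.07 to 1.51), Cpe at 0.49 (0.09 to 0.90) and Adam9 at 0.47 (0.13 to 0.80). For Lxn the difference was -0.23 (-0.65 to 0.19) and for Plau 0.24 (-0.29 to 0.77).

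**Figure D4:**
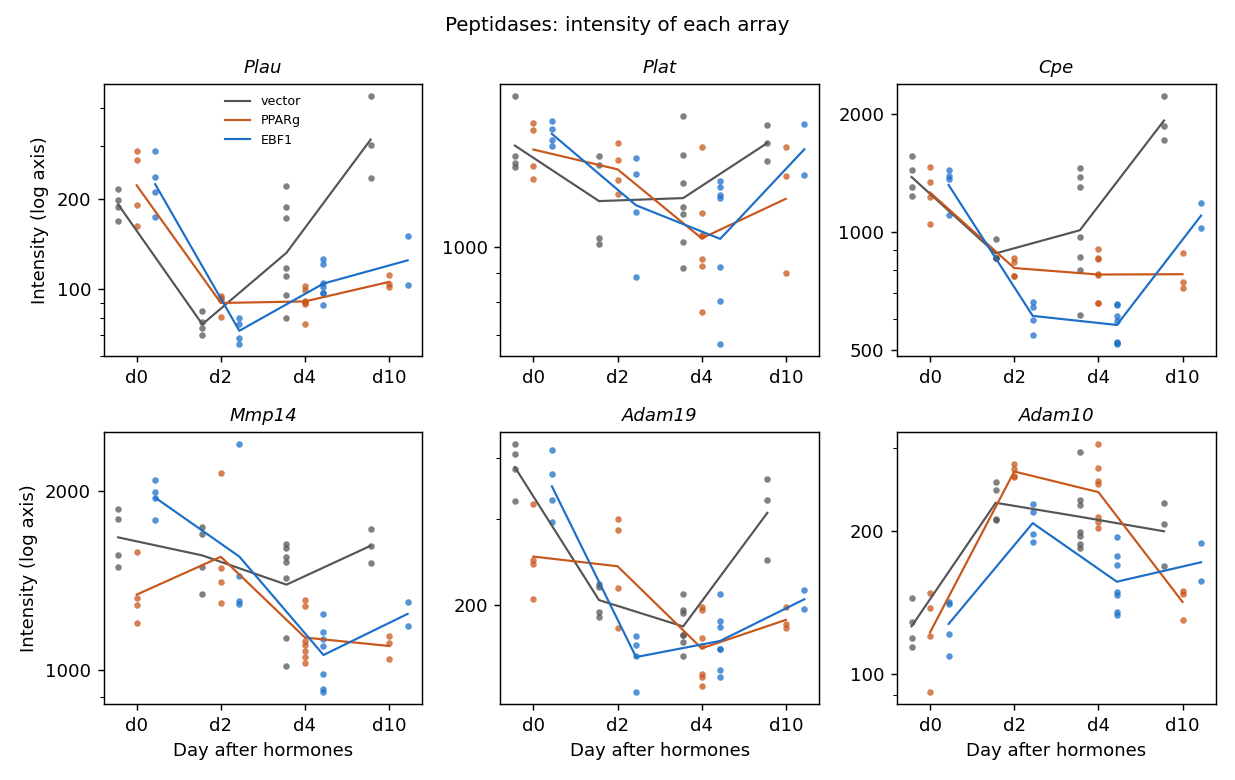
Intensity of 6 peptidase genes on every array (points, log axis) by day after the hormones, with a line through the mean log2 intensity of each insert's arrays (4 arrays on d0 and d2, 7 on d4, 2 or 3 on d10). On d10 the 3 vector arrays of Plau read 235 to 439.5 and the 5 arrays with an insert 102 to 150.3, while the Plat arrays of the 3 d10 groups overlap.

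**Figure D5:**
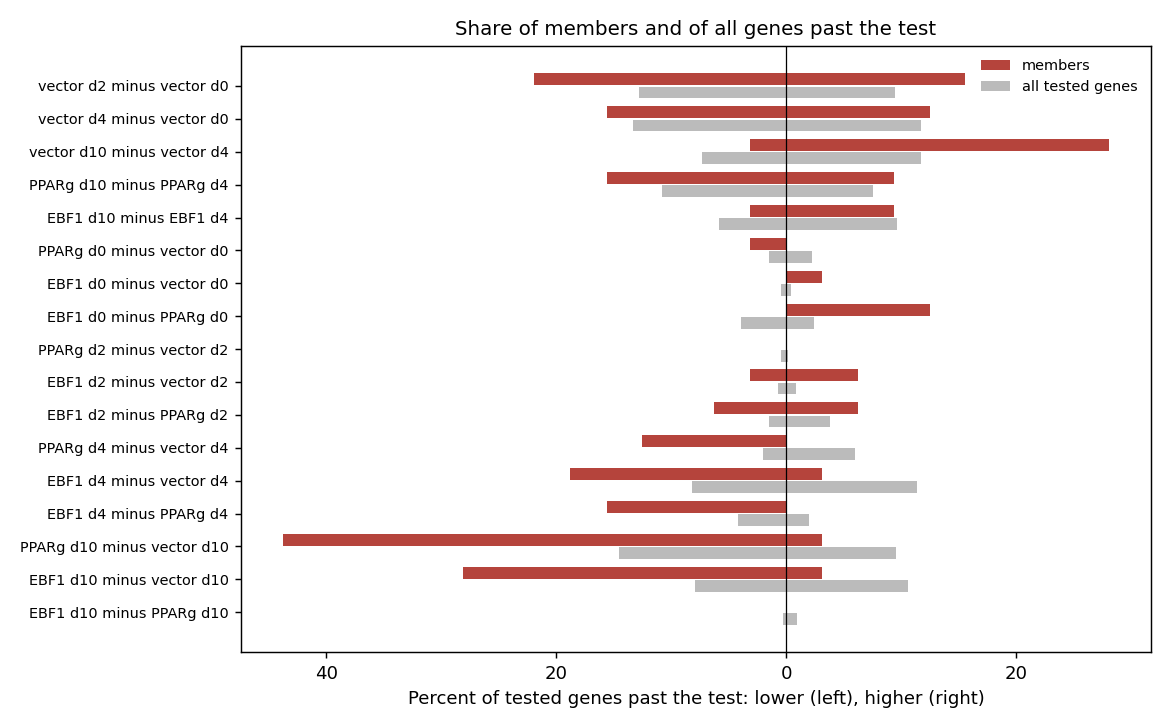
Percent of the 32 tested members (red) and of all 5761 tested genes (grey) that passed the test as lower (left of 0) or higher (right of 0), for 17 comparisons between groups of arrays. The longest member bars are 43.8% lower with PPARg and 28.1% lower with EBF1 on d10, and 28.1% higher in vector cells from d4 to d10.

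The 14 tested members that passed nowhere were Plat, Plaur, Htra1, Mmp16, Mmp24, Adam5, Adam8, Adam17, Adam28, Serpina1b, Serpina1e, Serpina5, Serpinc1 and Serpinf2. Their intensities ran from 88.7 to 1853 and their log2 differences from -0.40 to 0.53. Htra1, a secreted serine protease, had group means from 226 to 288, and Adam17, the sheddase of tumour necrosis factor, from 237 to 278. The probe sets of Serpina1b and Serpina1e match several near-identical genes and cannot be assigned to 1 of them.

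Genes that work with the members also changed. Of 10 tested partners of plasminogen and the cell surface, 6 were lower and 1 higher in vector cells at d2 against d0, beside 12.8% and 9.43% of all genes, and 5 were higher and 0 lower from d4 to d10, beside 11.7% and 7.33%. The largest of the d2 falls were Anxa2 (-1.04), F2r (-0.98), Itgav (-0.67) and Itgb5 (-0.62), and of the d10 rises Itgav (1.19), Clec3b (1.11), F3 (0.76) and Itgb5 (0.51). On d10, 6 were lower and 0 higher with PPARg, beside 14.5% and 9.6% of all genes, and 5 were lower and 1 higher with EBF1, beside 7.9% and 10.6%. With PPARg Itgav, an integrin subunit, was at -1.33, F3, which encodes tissue factor, at -1.31, Clec3b, which encodes the plasminogen-binding protein tetranectin, at -1.27 and Lrp1, an endocytic receptor for protease and inhibitor complexes, at -0.74. With EBF1 Clec3b was at -1.19, Itgav at -0.84, F3 at -0.78 and Lrp1 at -0.63, and the 1 higher gene was Anxa2 at 0.60. The list's median on d10 was -0.63 with PPARg and -0.48 with EBF1.

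Of 18 other tested peptidases, 6 were lower and 1 higher with PPARg on d10, and 4 were lower and 1 higher with EBF1, with list medians of -0.19 and -0.02. The shares of all genes were 14.5% lower and 9.6% higher with PPARg, and 7.9% and 10.6% with EBF1. With PPARg Prss23, a secreted serine protease, was at -1.43, C1ra, a complement protease, at -1.24, and the cathepsins Ctsz and Ctsl at -1.07 and -0.71. With EBF1 Prss23 was at -0.98, C1ra at -0.76, Bmp1, a procollagen protease, at -0.50, and Ctsk, a collagen-cutting cathepsin, higher at 0.47. A list of 14 other tested genes, inhibitors and genes related to them, had 4 lower and 0 higher with PPARg and 3 lower and 0 higher with EBF1, against the same shares of all genes, with list medians of 0.00 and -0.13. The 4 were Reck, Pcolce, Serpinh1 and Cst3, of which Reck and Cst3 (a cysteine protease inhibitor, at -0.56 with PPARg) are inhibitors, and Cst3 did not pass with EBF1. Reck, a membrane-anchored inhibitor of metalloproteinases, was at -1.44 and -0.82, Pcolce, a procollagen protease enhancer, at -0.85 and -0.69, and Serpinh1, a collagen chaperone, at -0.70 and -0.40. Serpina3n was the largest change of this list in vector cells, at 3.21 on d2 and -1.61 from d4 to d10.

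Fibroblast markers moved in the same direction as most members past the test, and adipocyte markers in the other direction, both in vector cells from d4 to d10 and with each insert on d10. The summed intensity of 10 fibroblast markers was 44270 to 47473 on the vector d10 arrays, 26985 to 28514 with PPARg and 34948 to 34999 with EBF1. Of these markers 7 of 10 were lower with PPARg and only 3 with EBF1, against 14.5% and 7.9% of all genes. The sum of 10 adipocyte markers was 4879 to 7571, 26418 to 30322 and 30850 to 38718 on the same arrays. Here 8 of 10 were higher with each insert, against 9.6% of all genes with PPARg and 10.6% with EBF1. In vector cells from d4 to d10, 9 of 10 fibroblast markers rose and 6 of 10 adipocyte markers fell, against 11.7% and 7.33% of all genes. The lists were not opposed over the same days in cells with an insert. With PPARg 5 fibroblast markers were higher and 1 lower, and 5 adipocyte markers higher and 1 lower, against 7.53% and 10.8% of all genes. With EBF1 8 fibroblast markers were higher and 0 lower, and 6 adipocyte markers higher and 1 lower, against 9.62% and 5.81%. In such bulk RNA fewer cells of a type and less RNA per cell cannot be told apart, and the part of a changed mix of cells in the members' differences was not tested. Of the markers of other cell types, 5 of 8 for macrophages and leukocytes, 4 of 6 for endothelium, 5 of 6 for B lymphocytes and 2 of 4 for epithelium were tested, and none passed on d10 against vector. Their sums overlapped between the d10 groups, for example 1011 to 1240 for macrophages and leukocytes with vector, 886 to 1212 with PPARg and 1041 to 1250 with EBF1.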

How the data were processed

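Total RNA of NIH-3T3 cells was hybridised to 53 MG_U74Av2 arrays. The deposited table holds 1 linear intensity per probe set and array, as the authors computed it, for 12488 probe sets. No source used here states the probe summary or the array scaling. Values below 54.48, the pooled 20th percentile, were raised to it before taking log2. After dropping 66 controls, the test covered 7619 probe sets that exceeded 158 on at least 2 arrays. GEO's platform annotation gave 1 symbol to 10833 probe sets, several to 396 and none to 1193.

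Differences came from limma 3.58.1 in R 4.3.3 (12 group means over all arrays, intensity trend), adjusted by Benjamini-Hochberg over all tested probe sets within each comparison at a threshold of 0.05, and checked on simulated data. The simulated arrays were independent and had no session shifts, so they cannot show the error rate in the real arrays. Errors beside log2 differences are standard errors, and "passed" refers to this test. Named were members past the test, at most 12 per direction and comparison, and at most 4 genes of a list per comparison. Anxa2 with EBF1 on d10 was named beyond that limit. Members, gene lists and motifs were chosen with earlier results of these data known. The settings also tried were no filter, quantile normalization, a higher floor (40th percentile), sessions or replicate numbers as a block, a fit of only the groups compared, each array left out and, added after the data were seen, session 3 alone. Among groups with 3 or more shared numbers, same-numbered arrays deviated together most clearly for EBF1 and vector on d2, with r of 0.621 to 0.678 in every pair. There the replicate block moved the count from 3 to 4. All r were also positive, some of them small, for PPARg and vector on d2 (0.0885 to 0.49), EBF1 and PPARg on d2 (0.0691 to 0.491) and EBF1 and vector on d4 (0.0561 to 0.685). Both EBF1 and vector pairs on d10 also deviated together (0.584 and 0.689), too few to settle a pairing.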

Additional observations from a re-analysis of the deposited data

Results flagged for a closer look

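Single arrays stood apart from the others of their group in 6 of 162 sets of member values, where chance gives about 1 in 20. Adam23 read 387.7 on PPARg d0 replicate 4 against 308 to 315 on the other arrays. Cpe read 962.2 on vector d2 replicate 3 against 857.1 to 858.4. Lxn read 704.9 on vector d2 replicate 4 against 1044 to 1132, and 951.5 on EBF1 d4 replicate 6 against 872.8 to 905.7. On vector d0 replicate 4 Serpinb9 read 196.8 against 127.5 to 134.7 and Timp1 read 1003 against 1196 to 1235.

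The course from d4 to d10 differed between PPARg and vector cells by the limma test of that difference for 11 members. The log2 differences of differences were -1.63 for Lxn (adjusted p = 7.95e-07), -1.14 for Timp3 (0.043), -1.04 for Plau (0.0108), -0.98 for Serpinb6a (0.00193), -0.95 for Serpinf1 (0.0201) and -0.92 for Cpe (0.00296). They were -0.67 for Adam10 (0.0159), -0.58 for Adam19 (0.0478), -0.58 for Adam9 (0.0253), -0.45 for Adam23 (0.047) and -0.38 for Timp1 (0.0296). Between EBF1 and vector cells they were -1.45 for Lxn (adjusted p = 2.84e-05), -0.996 for Plau (0.0401), -0.54 for Adam23 (0.0415) and -0.50 for Timp1 (0.0117). Within session 3 the Lxn results passed and the others did not. With single arrays left out, the PPARg calls of Adam19, Adam23 and Timp3 were lost in 14, 13 and 10 of 20 omissions. The EBF1 calls of Adam23 and Plau were lost in 12 and 9 of 19. All of these were also lost without the filter and in a fit of only the groups compared. Lxn with each insert, and Cpe and Serpinb6a with PPARg, were kept in every omission.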

How the results depend on the processing

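Of 112 differences past the test, 0 changed sign under the alternatives counted next. Taken session by session, 3 did so in session 1: Plau and Cpe for PPARg against vector on d4 (0.14 and 0.03) and Mmp14 for EBF1 against vector on d4 (0.05). The second Serpinf1 probe set had the other sign in several comparisons, such as PPARg against vector on d10 (0.20 against -1.21). The number no longer past the threshold was 28 in a fit of only the groups compared, 11 without the filter, 5 under quantile normalization, 3 with the higher floor, 1 with sessions as a block, 1 with the replicate block, 41 when at least 1 of the single arrays was left out, and 18 of 62 within session 3. A fit of fewer arrays has less to estimate the spread from. For the other changes the cause was not tested.

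Counts of members past the test that moved by more than 1.5 times were these. In a fit of only the groups compared, PPARg against vector on d0 went from 1 to 0, EBF1 against PPARg on d0 from 4 to 2, EBF1 against vector on d2 from 3 to 0, PPARg against vector on d4 from 4 to 2, the PPARg difference of differences from 11 to 5 and the EBF1 one from 4 to 2. Without the filter, PPARg and EBF1 against vector on d0 each went from 1 to 2 and the EBF1 difference of differences from 4 to 2. With sessions as a block, EBF1 against vector on d0 went from 1 to 2 and EBF1 against PPARg on d10 from 0 to 1. With the replicate block, EBF1 d10 against d4 went from 4 to 7 and EBF1 against vector on d0 from 1 to 2. PPARg against vector on d4 went from 4 to 7 and EBF1 against PPARg on d10 from 0 to 2. Whether replicate numbers pair arrays is not known. Within session 3, EBF1 d10 against d4 went from 4 to 7 and the differences of differences from 11 to 1 and from 4 to 1.

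With each array left out in turn, the count ran from 5 to 10 for PPARg d10 against d4, from 0 to 2 for PPARg against vector on d0, from 2 to 3 for EBF1 against PPARg on d0, from 0 to 1 for PPARg against vector on d2, from 1 to 3 for EBF1 against vector on d2 and from 2 to 5 for PPARg against vector on d4. It ran from 3 to 5 for EBF1 against PPARg on d4, from 4 to 11 for EBF1 against vector on d10, from 4 to 12 for the PPARg difference of differences and from 1 to 4 for the EBF1 one. The d10 groups of 2 and 3 arrays limit the precision.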

Other observations

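Of the 27 members too dim to be tested, 26 were below the filter on every array and none read above 162. They included the collagenase gene Mmp13, the stromelysin genes Mmp3 and Mmp10 and Serpinb2, an inhibitor of urokinase. Mmp2, whose product is activated through Mmp14 and Timp2, read 53.2 to 100.5 on the 53 arrays. Adam4, Adamts1, Mmp17, Serpina12, Serpinb1a, Serpinb2 and Serpinb5 were at or below the floor of 54.48 on all arrays. The others were Adam2, Adam7, Adam11, Adam22, Mmp7, Mmp8, Mmp11, Mmp12, Serpina1c, Serpina6, Serpina10, Serpinb3a, Serpinb6c, Serpinb9e, Serpind1 and Serpini1.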
